A study of Mus musculus with 9 samples.

Results

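The mRNAs of 10 mouse genes that build the centriole or turn it into a basal body were followed in testes with and without RFX2, a transcription factor of the RFX family. The genes were selected by name, with earlier results of these data known. They are Plk4, Sass6, Cep152, Cep63 and Cep135 of the duplication pathway, Poc1a and Poc1b of the centriole wall and lumen, Cep164 of the distal appendages, and the centrins Cetn1 and Cetn4. All 10 were found among the 23074 genes of the count table and all 10 passed the filter on low counts, which kept 15613 genes. None of these mRNAs passed the test across all genes for a difference between Rfx2-/- and wild type testes. The wild type mean of Cep164 was 281 ± 10.6 CPM (SD, n = 5), in counts scaled to a common library size, and the Rfx2-/- mean was 142.7 ± 70.5 CPM (SD, n = 4). It was the only member whose genotypes did not overlap. Cep152 had 73.8% of its wild type level, and the mean of the other 8 lay between 86.0% and 125.1%.

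Centrioles are short cylinders of microtubules. A new centriole is started when the kinase PLK4, held at the mother centriole by CEP63 and CEP152, triggers assembly of a cartwheel of SAS-6, to which CEP135 links the microtubule wall. A centriole becomes a basal body when its distal appendages, which contain CEP164, attach to membrane and allow an axoneme to grow. In round spermatids one centriole templates the axoneme of the sperm flagellum. RFX factors bind the X-box, an inverted repeat in the promoters of many ciliary genes.

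Each library was made from the decapsulated testis of 1 mouse of a mixed C57BL/6, 129/Sv and FVB/N background at postnatal day 29 to 30. Of the 9 mice, 5 were wild type and 4 were Rfx2-/-, homozygous for a germline deletion of a single exon obtained by Cre recombination. Whole testis holds somatic cells and germ cells of several stages, so fewer cells of a type and less RNA per cell cannot be told apart. Library totals ranged from 13574764 to 15193330 counts, apart from 28800855 in Rfx2-/- replicate 1. Rfx2-/- replicate 2 differed from the other knockout libraries in a way that followed transcript length and fitted values without it are given below. The lowest count of any member in any library was 180, and the floor of 3 counts corresponded to 0.0995 to 0.234 CPM. The targeted gene Rfx2 had 471 to 623 CPM in wild type libraries, and 199.0, 61.4, 151.0 and 172.6 CPM in Rfx2-/- replicates 1 to 4, so reads of the gene remained. According to the study, no reads covered the deleted exon and RFX2 protein could not be detected. Markers of all germ cell and somatic types examined were detected in every library. Of 11 markers of elongating spermatids, 5 were lower in Rfx2-/- testes, all 11 had a log2 fold change below 0, and their summed level was 8695 to 18494 CPM in wild type and 6930 to 11230 CPM in Rfx2-/- libraries. Of 8 meiotic prophase markers 1 was higher and none had a log2 fold change below 0, with sums of 852 to 1147 CPM and 1196 to 2491 CPM. In the other lists 1 of 6 late spermatocyte markers and 1 of 5 peritubular markers were lower, 1 of 8 round spermatid and 1 of 8 Sertoli markers were higher, and 0 of 8 spermatogonia, 7 Leydig and 7 macrophage markers passed. Over all genes tested 7.31% were lower and 3.48% higher, so a single call in a short list does not show a shift of a cell type. The part of any shift in cell types in the results below was not tested.

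Promoter sequences are shown for the genes on which the results turn (RefSeq, GRCm38.p6, 250 bases before to 50 bases after the annotated start, 5′ to 3′ on the strand of the gene). RefSeq held a promoter for 9 of the 10 members, Cetn1 being the exception. The windows were searched on both strands for an X-box, written as GTNNCC followed after 0 to 3 bases by GGNNAC, and for a single exact arm, GTTGCC or its complement GGCAAC. An exact arm can also be part of an X-box. The X-box occurs in 3.86% and the exact arm in 12.5% of 32851 RefSeq promoters. The match is in capitals where there is one. Cetn4 is shown as the only member with an RFX2 promoter peak in the study's list from P21 testis. Its window holds neither motif, and it overlaps the promoter of Bbs12, which is transcribed in the other direction.
Cetn4 promoter, chr3:37312397-37312696, minus strand: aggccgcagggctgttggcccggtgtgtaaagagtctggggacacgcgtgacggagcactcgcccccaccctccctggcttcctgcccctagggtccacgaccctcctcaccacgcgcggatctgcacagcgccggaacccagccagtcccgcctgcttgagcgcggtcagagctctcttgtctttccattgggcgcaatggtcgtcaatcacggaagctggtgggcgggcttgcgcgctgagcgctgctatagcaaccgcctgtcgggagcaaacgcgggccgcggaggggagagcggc
Cep164 is the member with the largest difference between genotypes. It has no peak in that list and holds a single arm, 35 bases after the start.
Cep164 promoter, chr9:45828614-45828913, minus strand: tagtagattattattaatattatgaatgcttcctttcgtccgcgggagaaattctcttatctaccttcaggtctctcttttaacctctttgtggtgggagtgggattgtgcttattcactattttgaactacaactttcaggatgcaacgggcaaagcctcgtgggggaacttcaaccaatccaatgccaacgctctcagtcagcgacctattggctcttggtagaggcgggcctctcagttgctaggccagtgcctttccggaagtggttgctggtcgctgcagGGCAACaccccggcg
Cep135 is the only member with an X-box, which begins 11 bases before the start, and it has no listed peak.
Cep135 promoter, chr5:76588449-76588748, plus strand: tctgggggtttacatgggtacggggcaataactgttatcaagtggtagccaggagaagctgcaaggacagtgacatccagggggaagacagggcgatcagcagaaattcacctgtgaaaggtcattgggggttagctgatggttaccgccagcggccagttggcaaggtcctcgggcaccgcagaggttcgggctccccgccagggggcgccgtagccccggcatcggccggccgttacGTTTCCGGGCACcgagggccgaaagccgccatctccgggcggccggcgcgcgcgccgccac
Deup1, a paralogue of Cep63 and no member of the 10, is shown because it has a listed peak, an X-box beginning 87 bases before the start, and a lower mRNA level in Rfx2-/- testes. It was picked for this coincidence, and another RefSeq window of Deup1 holds neither motif. The centriole genes Ccdc13, Spice1, Tex9 and Cep19 also have a listed peak and an X-box but did not pass as lower. Fam161a, which had the largest difference of the centriole genes, has no listed peak and neither motif.
Deup1 promoter, chr9:15627797-15628096, minus strand: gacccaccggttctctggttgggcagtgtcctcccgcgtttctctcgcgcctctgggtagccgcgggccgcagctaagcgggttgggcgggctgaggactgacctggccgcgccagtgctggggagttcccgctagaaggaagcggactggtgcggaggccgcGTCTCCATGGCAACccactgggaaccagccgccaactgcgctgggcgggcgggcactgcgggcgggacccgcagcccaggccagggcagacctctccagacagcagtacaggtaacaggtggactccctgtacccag
No other member held a match. A motif in these windows is a description of the letters and does not show a binding site, and its absence says nothing on RFX2 binding.

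**Figure D1:**
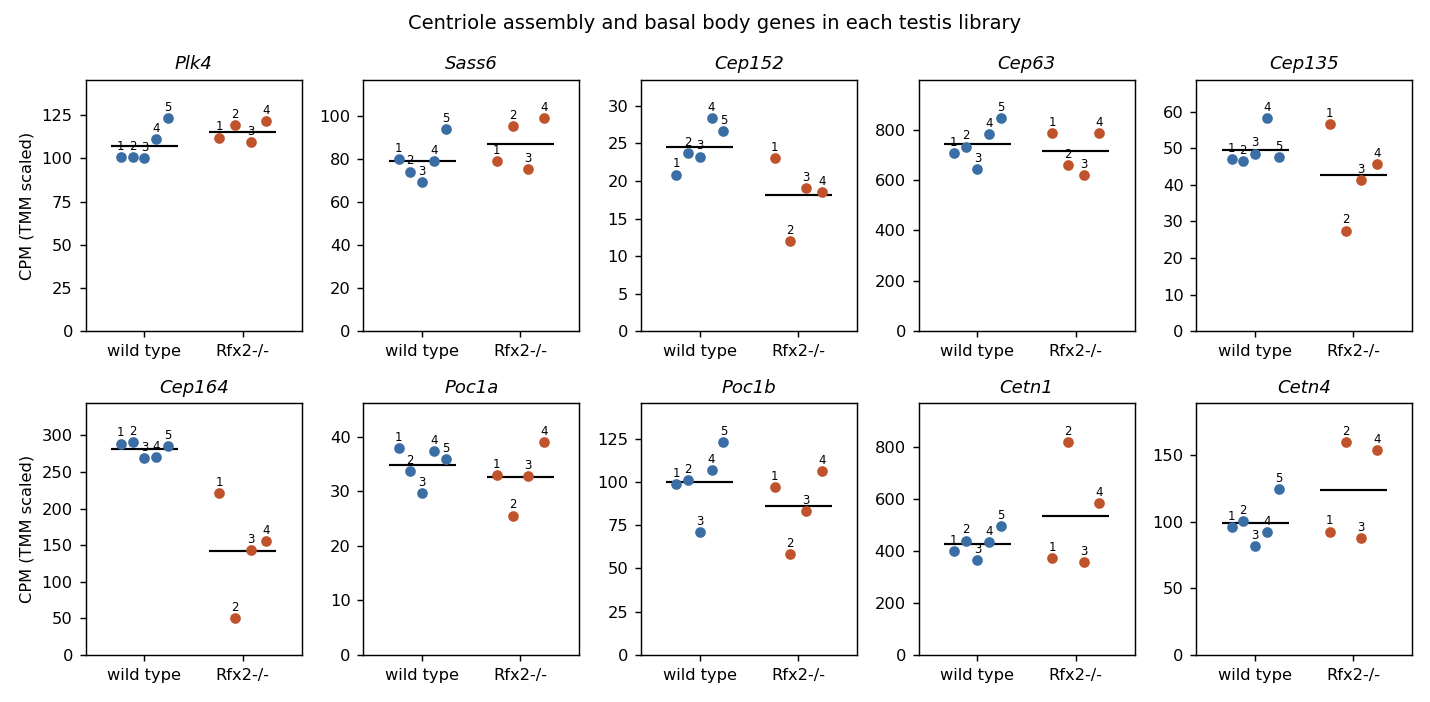
Level of each of the 10 genes in every testis library in CPM, with wild type libraries in blue, Rfx2-/- libraries in orange, replicate numbers beside the points and the group mean as a black line. For Cep164 the 4 Rfx2-/- points, from 50.1 to 221 CPM, lie below all 5 wild type points. For the other 9 genes the groups overlap.

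Levels between genes were compared as CPM per kb of merged coding transcript exons. CPM are counts scaled by library total and by the TMM factor of edgeR. In wild type testes Cetn1 was the most abundant member, at 309 ± 34.96 CPM per kb (SD, n = 5), followed by Cep63 at 148.2 ± 15.5 and Cep164 at 36.4 ± 1.38 CPM per kb. Plk4 at 30.0, Sass6 at 30.0, Poc1b at 28.5 and Cetn4 at 24.6 CPM per kb came next, and each overlapped its neighbour in the order. Poc1a followed at 13.8, Cep135 at 8.95 and Cep152 at 4.26 CPM per kb, each apart from its neighbours in all 5 libraries. In Rfx2-/- testes Cetn1 at 386 and Cep63 at 142.6 CPM per kb again led and Cep152 at 3.14 CPM per kb was again last. Cep164 came seventh there, at 18.5 ± 9.13 CPM per kb (SD, n = 4), and all neighbours from Sass6 at 33.0 to Cep135 at 7.72 CPM per kb overlapped in their ranges.

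None of the 10 members passed an adjusted p of 0.05 in the quasi-likelihood test of edgeR, in either direction. Over all 15613 genes tested, 7.31% passed as lower and 3.48% as higher in Rfx2-/- testes. At an unadjusted p under 0.05, 2 members were lower, Cep152 and Cep164, and 0 were higher, against 13.7% and 13.9% of all genes. With the stricter rule of an adjusted p at or under 0.01 and over 2-fold, 0 members and 4.51% of all genes passed. The alternative test with DESeq2 called 1 member, Cep164. The log2 fold change was below 0 for 6 members and above 0 for 4, with a median of -0.08, and the median of all genes was 0.03. The genotypes did not overlap for 1 member, against 15.9% of all genes, 9.71% with Rfx2-/- below wild type and 6.14% with Rfx2-/- above. The interval of each difference shows what these libraries leave possible. For Plk4, the narrowest, the 95% interval of the log2 fold change was -0.16 to 0.38, and for Cep164, the widest, it was -1.65 to -0.30.

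**Figure D2:**
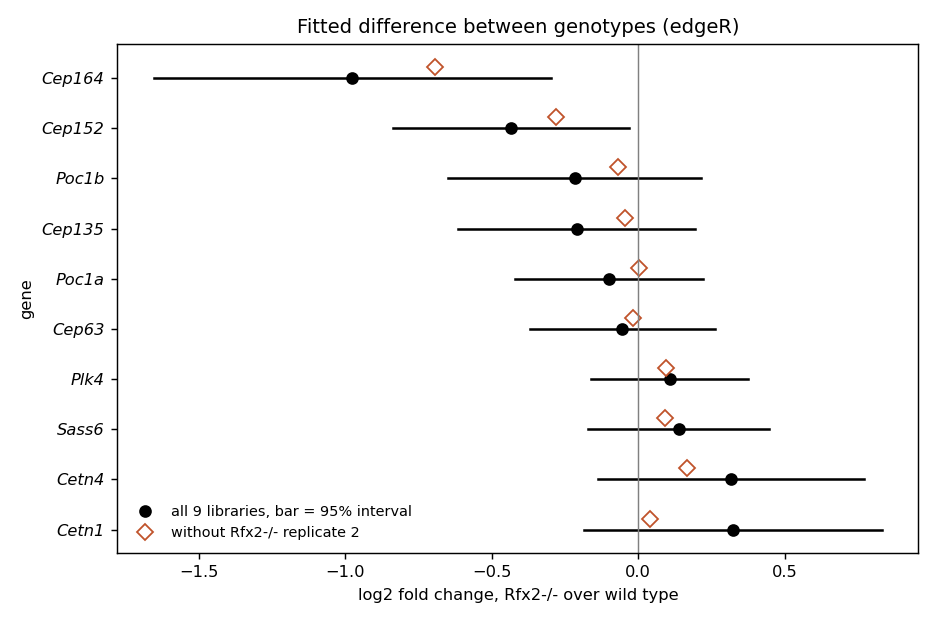
Fitted log2 fold change of each gene, Rfx2-/- over wild type, with its 95% interval from all 9 libraries (black) and the value without Rfx2-/- replicate 2 (open diamonds). Cep164 and Cep152 have intervals below 0. Without that library all 10 values lie closer to 0, and Cetn1 goes from 0.32 to 0.04.

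Among genes of centriole duplication, Plk4, the kinase that starts the process (ENSMUSG00000025758, GRCm38 chromosome 3, 40800019 to 40816883), had 100.7, 100.8, 100.1, 111.3 and 123.3 CPM in wild type replicates 1 to 5. It had 112.1, 119.2, 109.6 and 121.4 CPM in Rfx2-/- replicates 1 to 4. All knockout values lay inside the wild type range. Its log2 fold change was 0.11 ± 0.12 (SE, edgeR adjusted p 0.596). Sass6, which encodes the cartwheel protein (ENSMUSG00000027959, chromosome 3, 116594982 to 116631004), had 79.8, 74.1, 69.2, 78.9 and 94.0 CPM in wild type and 78.9, 95.3, 75.3 and 98.9 CPM in Rfx2-/- libraries. Rfx2-/- replicates 2 and 4 were slightly above the highest wild type library. The log2 fold change was 0.14 ± 0.14 (SE, edgeR adjusted p 0.551). Of its 50-base windows 29.1% also occur in other annotated transcripts, read on either strand. That share includes overlap on the opposite strand, where the antisense Gm42893 covers 24.5% and Trmt13 covers 6.36% of its exons. The counts of Sass6 are therefore less certain than those of Plk4.

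Cep152 and Cep63 encode the pair of scaffold proteins that recruit PLK4. Cep152 (ENSMUSG00000068394, chromosome 2, 125563088 to 125625113) had 20.9, 23.8, 23.3, 28.4 and 26.6 CPM in wild type libraries. In Rfx2-/- libraries it had 23.0, 12.0, 19.0 and 18.5 CPM. Rfx2-/- replicates 2, 3 and 4 were below every wild type library, and replicate 1 lay within the wild type range. Its log2 fold change was -0.43 (SE 0.18, 95% interval -0.84 to -0.03), with an edgeR adjusted p of 0.152 that ranged from 0.0263 to 0.291 over the alternatives. Without Rfx2-/- replicate 2 it was -0.28 (edgeR adjusted p 0.183). Cep63 (ENSMUSG00000032534, chromosome 9, 102584588 to 102626534) had 705, 733, 642, 784 and 846 CPM in wild type and 787, 661, 620 and 788 CPM in Rfx2-/- libraries. Its groups overlapped almost completely, with a log2 difference of -0.06 ± 0.15 (SE, edgeR adjusted p 0.830). The difference in log2 fold change between this scaffold pair was not tested. Cep135, which ties the cartwheel to the wall (ENSMUSG00000036403, chromosome 5, 76588698 to 76646466), had 46.9, 46.5, 48.5, 58.2 and 47.6 CPM in wild type and 56.7, 27.5, 41.3 and 45.6 CPM in Rfx2-/- libraries. Rfx2-/- replicate 1 lay within the wild type range, and replicates 3 and 4 were below every wild type library. Only Rfx2-/- replicate 2 stood far below the rest. Its log2 fold change was -0.21 ± 0.19 (SE, edgeR adjusted p 0.484), and -0.05 without that library (edgeR adjusted p 0.852).

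Cep164 encodes a distal appendage protein needed for docking of the basal body to membrane (ENSMUSG00000043987, chromosome 9, 45766946 to 45828691, minus strand). In wild type replicates 1 to 5 it had 289, 291, 269, 270.0 and 286 CPM, the tightest group of any member, with a coefficient of variation of 3.78%. In Rfx2-/- replicates 1 to 4 it had 221, 50.1, 143.7 and 155.9 CPM, or 78.7%, 17.8%, 51.1% and 55.5% of the wild type mean. All 4 knockout libraries were below all 5 wild type libraries, and they differed among themselves with a coefficient of variation of 49.4%. The log2 fold change was -0.98 (SE 0.31), a fitted 1.97-fold lower level with a 95% interval of 1.23 to 3.15. The edgeR adjusted p was 0.0673 and ranged from 0.00367 to 0.130 over the alternatives. Without Rfx2-/- replicate 2 the difference was smaller, with a log2 fold change of -0.69 (SE 0.14), and the edgeR adjusted p was 0.00367. Without Rfx2-/- replicate 1 it was -1.24 with an edgeR adjusted p of 0.0176. In DESeq2 with all libraries it was -0.97 with an adjusted p of 0.0161. In falling order the 4 knockout libraries were replicates 1, 4, 3 and 2. The Rfx2 reads left from the deleted allele and the level of the distal appendage gene Fbf1 had the same order. For Fbf1 this is no separate observation, because it was among the genes picked for likeness to Cep164 over these 9 libraries. A link between these levels was not tested.

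Poc1a and Poc1b encode WD repeat proteins of the centriole wall. Poc1a (ENSMUSG00000023345, chromosome 9, 106281061 to 106350521) had 38.0, 33.7, 29.6, 37.4 and 35.9 CPM in wild type and 33.0, 25.6, 32.8 and 39.1 CPM in Rfx2-/- libraries. The groups overlapped, and the log2 fold change was -0.10 ± 0.15 (SE, edgeR adjusted p 0.691). Poc1b (ENSMUSG00000019952, chromosome 10, 99107036 to 99198074) had 98.6, 101.1, 71.1, 106.6 and 123.1 CPM in wild type and 96.7, 58.3, 83.1 and 106.2 CPM in Rfx2-/- libraries. The lowest library of each genotype, wild type replicate 3 and Rfx2-/- replicate 2, stood apart from the others. Its log2 fold change was -0.22 ± 0.20 (SE, edgeR adjusted p 0.5001), and -0.07 without Rfx2-/- replicate 2 (edgeR adjusted p 0.819). Of its 50-base windows 26.6% are shared with other genes, as it overlaps Galnt4 on the same strand and the long noncoding Gm48768 on the other.

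Centrins are small calcium-binding proteins of the centriole lumen, and Cetn1 is the form known from male germ cells and other ciliated cells. Cetn1 (ENSMUSG00000050996, chromosome 18) had 400, 441, 366, 434 and 495 CPM in wild type replicates 1 to 5. It had 374, 822, 359 and 584 CPM in Rfx2-/- replicates 1 to 4. Rfx2-/- replicates 2 and 4 were above every wild type library and replicates 1 and 3 were near the lowest of them. Its log2 fold change was 0.32 (SE 0.23, 95% interval -0.18 to 0.83, edgeR adjusted p 0.386), and 0.04 without Rfx2-/- replicate 2. Cetn4 (ENSMUSG00000045031, chromosome 3, 37307749 to 37312708) had 95.9, 100.7, 82.0, 92.4 and 124.8 CPM in wild type and 92.6, 160.1, 87.6 and 154.1 CPM in Rfx2-/- libraries. The same knockout libraries, replicates 2 and 4, were high. Its log2 fold change was 0.32 ± 0.21 (SE, edgeR adjusted p 0.338), and 0.17 without Rfx2-/- replicate 2 (edgeR adjusted p 0.602). Bbs12, which shares the promoter region and a stretch of exon with Cetn4 on opposite strands, had 6.58 to 8.67 CPM in wild type and 8.39, 12.3, 7.69 and 11.8 CPM in Rfx2-/- libraries, again with replicates 2 and 4 highest (log2 fold change 0.39, edgeR adjusted p 0.196). Cetn3, a centrin outside the 10 that did not pass the test either, had 81.6 to 110.6 CPM in wild type and 113.9, 223.8, 104.0 and 150.9 CPM in Rfx2-/- libraries, a log2 fold change of 0.57 (edgeR adjusted p 0.105).

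Rfx2-/- replicate 2 stood apart from the other knockout libraries. It was the lowest knockout library for 5 members and the highest for 2. Compared with the mean of the other 3 knockout libraries, all genes tested had a median log2 difference of 0.55 with exons under 2 kb and -0.90 with exons over 8 kb. The 10 members tended the same way, but several did not follow their length. Cetn1, the shortest at 1384 bases, was 0.90 above the other 3 on the log2 scale and Cep164, the longest at 7727 bases, was -1.79, whereas genes of 7 to 8 kb had a median of -0.70. Spearman's rho between exon length and this difference was -0.71 over the 10 members, which share these libraries. With a length trend removed from every library, Cep164 passed with a log2 fold change of -1.08 (edgeR adjusted p 0.00407) and Cep152 with -0.46 (edgeR adjusted p 0.0263), and no other member passed. The trend was taken against the mean of the library's own genotype, so only spread within a genotype was removed. Over all genes this raised the calls from 1142 lower and 544 higher to 1791 lower and 1116 higher. The mean of the other 3 knockout libraries was 61.8% of wild type for Cep164, 82.1% for Cep152 and between 95.3% and 112.4% for the other 8. Without Rfx2-/- replicate 2 the log2 fold change was 0.09 for Plk4, 0.09 for Sass6, -0.02 for Cep63 and 0.00117 for Poc1a, beside the values given above for the other 6. In wild type, replicate 3 was the lowest library for 8 members. The coefficient of variation was larger in Rfx2-/- than in wild type libraries for 9 of the 10, Plk4 being the exception.

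**Figure D3:**
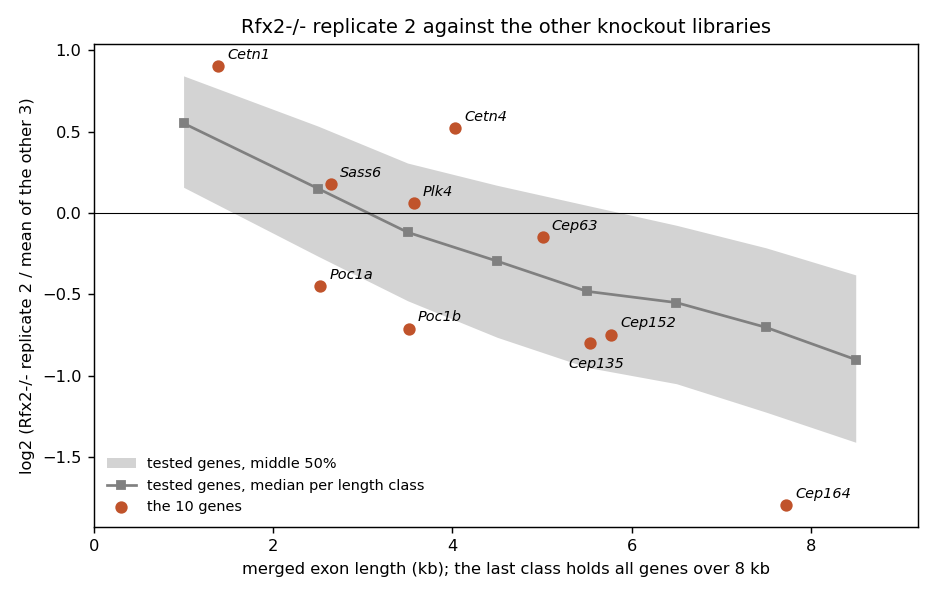
Log2 ratio of Rfx2-/- replicate 2 to the mean of the other 3 knockout libraries against merged exon length in kb, for the 10 genes (orange) and for all tested genes as the median and middle 50% per length class (grey). Cetn1, at 0.90, and Cep164, at -1.79, mark the ends. Cep164, Poc1a and Poc1b lie below the middle 50% of genes of their length, and Cetn1 and Cetn4 lie above it.

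The remaining centriole genes form the setting of these members. Of 92 such genes in 9 groups, 90 were tested, Mcidas and Gmnc having too few counts. In Rfx2-/- testes 11 (12.2%) were lower and 0 were higher (edgeR, adjusted p at or under 0.05), beside the 7.31% and 3.48% of all genes, and their median log2 fold change was -0.11. At an adjusted p at or under 0.01 and over 2-fold, 6 (6.67%) were lower, against 3.68% of all genes. All 11 lower genes were below wild type without overlap, as were 9.71% of all genes tested. This is no separate evidence, because the 11 were called on the same libraries. The 12 other duplication genes, which include Stil, Cenpj and Cep192, held 0 calls, as did 13 pericentriolar genes.

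The luminal scaffold of the centriole held the largest difference. Of 22 genes of elongation, capping and lumen, 4 were lower. Fam161a, whose protein lies in the inner scaffold of the centriole together with POC1B and POC5, had 147.0, 147.9, 105.9, 144.9 and 180.1 CPM in wild type and 6.77, 6.27, 4.90 and 2.81 CPM in Rfx2-/- libraries. Its level fell to 3.58% of wild type, a log2 difference of -4.79 ± 0.27 (SE, edgeR adjusted p 2.08e-07). The mRNAs of these scaffold partners did not pass, with a log2 fold change of -0.22 for Poc1b and -0.38 for Poc5 (edgeR adjusted p 0.225). Wdr90, of the same group, did not pass either but was farther from 0, at -0.81 (edgeR adjusted p 0.0719). Cep120, needed for centriole elongation, had a log2 difference of -1.01 ± 0.20 (SE, edgeR adjusted p 0.00632). Alms1, another lower gene of this group, chosen after its values were seen, had -0.90 (edgeR adjusted p 0.0102). Of 3 further centrins and centrin partners, Sfi1, which encodes a centrin-binding protein, was lower at -0.80 (edgeR adjusted p 0.0218), and Cetn2 at 0.28 and Cetn3 did not pass.

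At the appendages, 1 of 11 further distal genes was lower, Lrrc45 at -0.66 (edgeR adjusted p 0.0402). It is counted in the linker group too, where it was the 1 lower of 6 genes. Fbf1, a distal appendage gene that missed the limit, had 165.4 to 186.5 CPM in wild type and 149.9, 61.2, 112.0 and 120.3 CPM in Rfx2-/- libraries, without overlap (log2 fold change -0.70, edgeR adjusted p 0.0550). Of all genes tested, Slc9a8, Fbf1 and Cfap61 had the profile most like that of Cep164 over the 9 libraries, each with a Pearson's r of log2 CPM of 0.995, and Wdr60 at 0.988, Ahctf1 at 0.984 and Mroh2b at 0.983 were most like Cep152. These r values include the difference between genotypes and the shift of Rfx2-/- replicate 2. Cep83, which anchors the distal appendages, had 0.28 (edgeR adjusted p 0.310). Of 9 subdistal genes 1 was lower. Cep128 fell from 467 ± 63.9 CPM (SD, n = 5) to 148.8 ± 48.3 CPM (SD, n = 4), by 1.65 on the log2 scale (edgeR adjusted p 5.17e-04). Of 10 satellite genes 1 was lower, Cep131, which fell from 101.2 ± 3.51 CPM to 21.4 ± 8.36 CPM, or by 2.24 on the log2 scale (edgeR adjusted p 7.27e-05).

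The deuterosome pathway, which makes many centrioles at once in multiciliated cells, held 3 lower of 6 genes tested. Deup1, the deuterosome paralogue of Cep63, had 258, 265, 187.3, 298 and 295 CPM in wild type and 156.1, 134.9, 139.9 and 152.7 CPM in Rfx2-/- libraries. The groups did not overlap, and Rfx2-/- replicate 2 did not stand apart. The log2 fold change was -0.84 ± 0.16 (SE, edgeR adjusted p 0.00439), beside -0.06 for Cep63. Ccno, also needed in multiciliated cells, was scarce, with a wild type mean of 5.28 ± 1.36 CPM (SD, n = 5), a knockout mean of 1.498 ± 0.447 CPM (SD, n = 4) and a log2 difference of -1.80 (edgeR adjusted p 8.27e-04). Cdc20b, at 8.72 and 5.49 CPM, had -0.66 (edgeR adjusted p 0.0495).

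**Figure D4:**
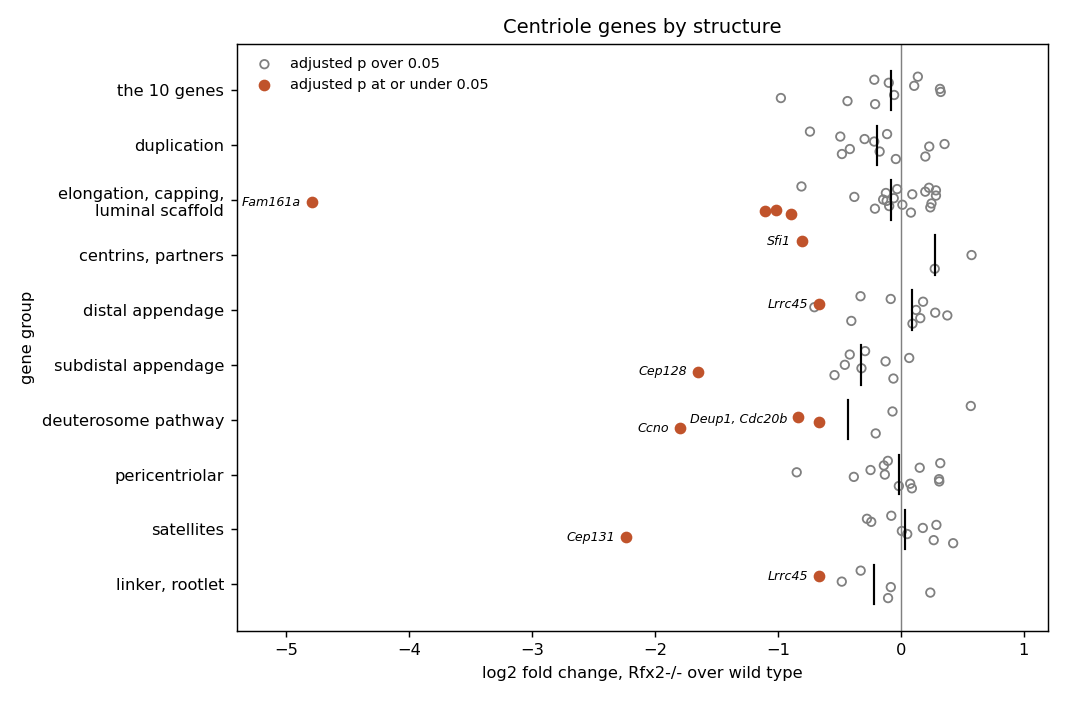
Log2 fold change, Rfx2-/- over wild type, of the 10 genes and of 90 other centriole genes by the structure they belong to, with filled points at an adjusted p at or under 0.05, most of them named, and a black line at each group's median. No filled point lies among the 10 genes or the duplication group, and Fam161a, at -4.79, lies farthest from 0.

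Promoter occupancy was compared as membership of the study's RFX2 peak list. Of the members only Cetn4 was listed, and of all genes tested 953 (6.1%) were listed. Of the other centriole genes tested 22 (24.4%) were listed, and 4 of these (18.2%) were lower, with Sfi1, Cep128 and Deup1 among them, against 22.8% of all listed genes. Among the 68 tested without a listed peak, 7 (10.3%) were lower, against 6.31% of all genes without one. The median log2 fold change of the other centriole genes was -0.13 with and -0.10 without a peak, and that of all genes was -0.18 and 0.04. No test was made of these shares. RefSeq held a promoter for 74 of the 92 genes, of which 10 contained an X-box and 22 a single exact arm.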

How the data were processed

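RNA-seq libraries of 9 testes, 5 wild type and 4 Rfx2-/-, were used, 1 mouse each, grouped by the genotype in the labels. Replicate numbers follow the order of deposition. The deposited values are raw read counts per Ensembl gene. According to their methods, the authors mapped TruSeq single reads to GRCm38 with STAR, discarded reads with several positions, and counted reads with featureCounts over merged exons of protein coding isoforms, leaving out reads that overlap exons of different genes. The submitters' processing notes list CASAVA 1.8.2, STAR 2.4 and featureCounts 1.4.6. Another read length and aligner are given elsewhere in the methods, and use of strand is not given in the sources used here, so overlapping genes on opposite strands can exchange reads.

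From these counts, CPM were computed with TMM factors, and genotypes were compared in edgeR 4.0.16 by its quasi-likelihood test (R 4.3.3, robust, filterByExpr), with Benjamini-Hochberg adjustment over 15613 genes. A gene passed at an adjusted p at or under 0.05. Intervals are 95% intervals of the fitted change. The chi-square between libraries of a genotype was 4.32 per gene or more, so each counted as a replicate. The floor of 3 counts covers counting error only, whereas the intervals of the fitted change include the spread between libraries of a genotype. The table had 0 columns without a sample. Alternatives were DESeq2 1.42.0 and its size factors, total counts, no count filter, a non-robust fit, removal of a length trend, thinning of Rfx2-/- replicate 1, stricter limits and omission of each library. The script was tested on simulated counts.

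The members were given by name. They and all gene lists, from general knowledge, were chosen with earlier results of these data known. Named genes are the members, Rfx2, up to 3 lower and 3 higher genes per list by adjusted p, and the 3 genes most correlated with each of the 2 members of lowest adjusted p. The values of a gene selected by this rule are not reported here. Other genes are named as context and were chosen after their values were seen. Names, positions and exon lengths are from GENCODE M21, promoters from RefSeq. Kiaa0586 found no match in the table. Of the study's chromatin immunoprecipitation at P21, membership of the promoter peak list was used and no value.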

Additional observations from a re-analysis of the deposited data

Results flagged for a closer look

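Cep135 in wild type replicate 4 stood apart from the other wild type libraries, at 58.2 CPM against 46.5 to 48.5 CPM. The rule compares the gap to the nearest library with the range of the group, and chance marks about 1 in 20 groups. Among the 20 groups examined, the 10 members in each genotype, it marked 1.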

How the results depend on the processing

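The fold change of each member was recomputed under 16 alternatives, 160 values in all. Of these, 151 kept their direction and side of the limit, 5 passed where the fit with all libraries had not, and 4 changed sign. The sign changes lay close to 0. Under scaling by total counts the log2 fold change was 0.0803 for Cep63 and 0.0331 for Poc1a. With each library omitted it was -0.0735 to 0.0425 for Cep63, above 0 without Rfx2-/- replicate 3, and -0.166 to 0.00117 for Poc1a, above 0 without Rfx2-/- replicate 2. The number of lower members was 0 with all libraries, 1 with the DESeq2 Wald test, 2 with the length trend removed, and 0 to 1 with each library omitted, being 1 without Rfx2-/- replicate 1 or without Rfx2-/- replicate 2. No alternative gave a higher member. For the other centriole genes the 11 lower calls became 19 with the length trend removed, where lower calls over all genes rose from 1142 to 1791. The 11 became 6 with an adjusted p at or under 0.01 and over 2-fold. They became 6 with an unadjusted p at or under 0.01 and over 2-fold, and 8 to 15 with each library omitted. The 15 were without Rfx2-/- replicate 2, where 1539 of all genes were lower. The 0 higher calls of the other centriole genes became 5 with total counts, 1 with the length trend removed, and 0 to 2 with each library omitted. The 2 were without Rfx2-/- replicate 1, where 1393 of all genes were higher. Scaling by total counts moved the median log2 fold change of all genes from 0.03 to 0.16 and the calls from 1142 lower and 544 higher to 959 lower and 1183 higher. The cause of these shifts was not tested. No paired analysis was possible because the labels give animal numbers but no litter. The study used littermates of the same age where it could, and an effect of litter was not tested. The intervals limit what 9 libraries can show. That of Plk4, the narrowest, reached a 1.30-fold higher level, and that of Cep164, the widest, a 3.15-fold lower one.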
